A study of Mus musculus with 45 samples.

Results

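The comparison described here is the single dose step from 0.3 to 1 µg/kg of dioxin (2,3,7,8-tetrachlorodibenzo-p-dioxin, abbreviated TCDD) in mouse liver, measured gene by gene by RNA-Seq. Its members are the 10 livers labelled with these doses, 5 at each, of 45 in the series, and the doses were tested directly against each other over 17464 detected genes. The question is which genes changed at this step and for which the data bound the change closely enough to call it flat.

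All mice were female C57BL/6 gavaged with TCDD in sesame oil, or with sesame oil alone as the vehicle, every 4 days for 28 days. RNA came from frozen samples of liver tissue, without separation of cell types. The sample labels also call the mice ovariectomized and give the gavage as daily in the same line, whereas the methods of the study describe dosing at 4-day intervals and do not mention ovariectomy. Ovariectomy, if done, was shared by every group. The other groups, with 5 mice each, were the vehicle and doses of 0.01, 0.03, 0.1, 3, 10 and 30 µg/kg. They supplied the estimate of spread, and vehicle and 30 µg/kg marked where a response starts and where it ends. Nothing in the labels says which libraries were sequenced together, so a part of sequencing batch in these results was not tested.

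TCDD binds the aryl hydrocarbon receptor (AhR), which in its resting state sits in the cytosol with Hsp90 and other chaperone proteins. Once bound, AhR enters the nucleus, pairs with Arnt and binds dioxin response elements, whose core letters are GCGTG. Its best known targets in liver encode cytochromes P450 of the Cyp1 family, conjugating enzymes such as UDP-glucuronosyltransferases, and brakes on the pathway itself, the repressor Ahrr and the ADP-ribosyltransferase Tiparp.

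The libraries held 12.997 to 25.8 M reads on genes at 0.3 µg/kg and 13.4 to 34.1 M at 1 µg/kg. At both doses 6 hepatocyte marker genes summed to 107280 to 119590 CPM (counts scaled to the size of each library) at 0.3 µg/kg and 99669 to 125921 at 1 µg/kg. Mouse 1 at 0.3 µg/kg stood apart from the other 9 livers. It lay at -70.4 on the first principal component, which carried 23.6% of the variance, against -12.8 to 25.9 for the others, and its clock genes were shifted, with Dbp at 3.29 CPM and Arntl at 35.8 CPM. Mouse 2 at 1 µg/kg was the deepest library of the 10, and its clock genes were shifted as well, with Arntl at 13.1 CPM, Per1 at 1.77 CPM and Dbp at 35.4 CPM against 0.685 to 1.23, 29.4 to 51.5 and 85.4 to 193 CPM in the other 4 mice of its dose. Mouse 2 at 0.3 µg/kg had Arntl at 9.84 CPM, Per1 at 1.47 CPM and Dbp at 52.6 CPM. A part of the clock in the differences among mice was not tested beyond the covariate given with the clock genes. One library at 0.01 µg/kg had Xist at 2.93 CPM against 1112 to 2844 CPM in the other 44 libraries of these female mice. It entered only the shared estimate of spread, and 20 genes were called with and without it.

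At the step 20 genes were called, and all 20 were higher at 1 µg/kg. The 20 are 0.115% of the genes tested, and 16 of them (0.0916% of genes tested) were at least 2-fold higher. No gene was called lower. Genes were called on the quasi-likelihood test of edgeR, when the p-value after Benjamini-Hochberg adjustment over all 17464 genes was under 0.05. At an unadjusted p under 0.05 there were 495 genes higher (2.83%) and 510 lower (2.92%), and DESeq2 called 31 higher and 1 lower. The median gene did not shift, with a median log2 fold change of -0.01. When only the 10 livers of the step were fitted, without the spread of the other groups, 6 genes were called, all of them among the 20: Cyp1b1, Ahrr, Insl6, Fhit, Serpinb6a and Nptx1. Without mouse 1 at 0.3 µg/kg the count was 19, and without mouse 2 at 1 µg/kg it was 14. The calls lost without mouse 2 were those of Fbxw9, Cyfip2, Fabp12, Mfge8, Exoc3 and C130080G10Rik. Over the 10 fits that left out 1 mouse, the call of Mfge8 was lost in 8, Them7 in 5, Cyfip2 and Ism2 in 4 each and Fbxw9 in 3.

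In 16 of the 20 genes no mouse at 0.3 µg/kg reached the lowest mouse at 1 µg/kg, a separation that 1.13% of all genes tested also showed in one direction or the other. The exact permutation p of each of these 16 genes was 0.00794 (two-sided), the smallest that 5 mice against 5 can give. Groups without overlap always give this value, so it restates the separation and is no further support. The other 4, Fabp12, Col4a3, Osbpl3 and Them7, overlapped. Of the 20 genes, 8 (C130080G10Rik, Exoc3, Fabp12, Col4a3, Osbpl3, Fbxw9, Them7 and Mfge8) lie outside the naming rule of the methods and were chosen after their values were seen.

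**Figure D1:**
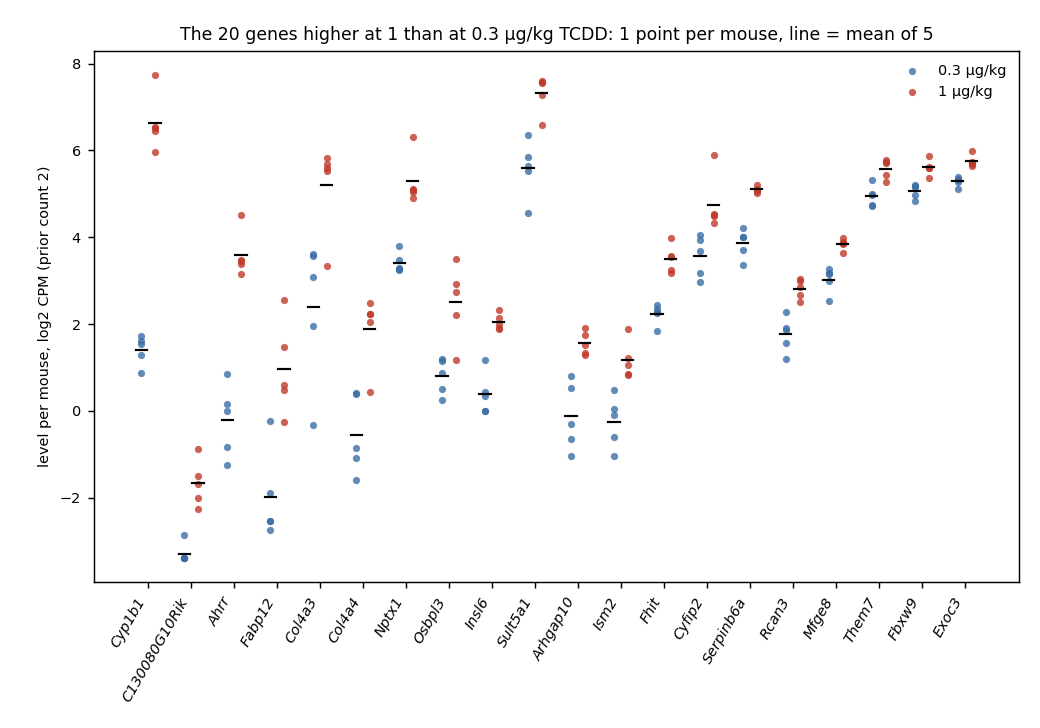
Level of each of the 20 genes called at the step, as log2 CPM with a prior count of 2, with 1 point per mouse (blue, 5 mice at 0.3 µg/kg; red, 5 mice at 1 µg/kg) and a line at each mean. The red points lie above the blue ones without overlap in 16 genes, and 1 red point is low in Col4a3, Col4a4 and Osbpl3.

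The AhR pathway genes were not all called at the same dose. A missing call does not show that a gene did not change, and no gene passed the test of a difference between neighbouring steps given further below. Of 21 genes on the list, Cyp1b1 and Ahrr were called at the step, whereas Cyp1a1 and Cyp1a2 had been called against vehicle at 0.3 µg/kg and were not called here. The 250 bases before the RefSeq start of 4 genes are printed here because their calls differed. Ahrr and Cyp1b1 were called at the step. Cyp1a1 was called at 0.3 µg/kg against vehicle and not at the step, and Slc46a3 was called at 0.3 µg/kg and flat at the step. Each is written 5′ to 3′ on the strand of the gene, with GCGTG, or CACGC where the letters lie on the other strand, in capitals.
Ahrr: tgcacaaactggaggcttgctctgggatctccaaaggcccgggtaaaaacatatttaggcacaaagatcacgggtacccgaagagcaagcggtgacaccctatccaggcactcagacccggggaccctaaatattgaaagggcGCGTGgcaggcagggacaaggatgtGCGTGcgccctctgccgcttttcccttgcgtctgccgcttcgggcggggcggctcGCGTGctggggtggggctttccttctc
Cyp1b1: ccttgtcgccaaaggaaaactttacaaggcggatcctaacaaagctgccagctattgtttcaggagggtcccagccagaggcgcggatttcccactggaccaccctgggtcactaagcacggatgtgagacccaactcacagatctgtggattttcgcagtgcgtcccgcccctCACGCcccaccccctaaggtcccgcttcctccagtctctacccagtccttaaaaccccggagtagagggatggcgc
Cyp1a1: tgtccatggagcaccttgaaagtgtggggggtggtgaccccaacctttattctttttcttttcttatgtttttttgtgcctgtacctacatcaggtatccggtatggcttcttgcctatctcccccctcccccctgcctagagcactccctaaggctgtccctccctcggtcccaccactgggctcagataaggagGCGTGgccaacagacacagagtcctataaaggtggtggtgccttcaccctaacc
Slc46a3: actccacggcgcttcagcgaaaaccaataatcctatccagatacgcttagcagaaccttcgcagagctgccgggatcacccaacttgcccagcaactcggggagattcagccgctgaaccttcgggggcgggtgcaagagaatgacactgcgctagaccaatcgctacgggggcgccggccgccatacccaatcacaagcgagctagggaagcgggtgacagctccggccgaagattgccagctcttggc
These stretches are on GRCm38 at chr13:74292332-74292581 (minus strand), chr17:79715062-79715311 (minus strand), chr9:57697363-57697612 (plus strand) and chr5:147894816-147895065 (minus strand), in the same order. The Ahrr stretch held 3 matches, which began 107, 82 and 27 bases before the start, the Cyp1b1 and Cyp1a1 stretches held 1 each, and the Slc46a3 stretch held 0. Across the 20 step genes, 15 had a window in the RefSeq table and 5 of the 15 (33.3%) held a match: Ahrr, Cyp1b1, Serpinb6a, Osbpl3 and Mfge8. Of the plateau genes defined further below, which include Slc46a3, 12 had a window and 6 of the 12 held a match. The 6 were Eml4, Htatip2, Mfsd4b1, Tmem62, Triap1 and Ugdh. The Slc46a3 stretch, with 0, therefore does not stand for the plateau genes. Among all tested genes with a window, 5550 of 11932 (46.5%) held a match. Of 32851 windows in the table, 28.2% did. A match is a run of letters and does not show that AhR binds there. Only stretches free of annotated exon bases were printed.

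Cyp1b1 (ENSMUSG00000024087) encodes a monooxygenase that hydroxylates estradiol and polycyclic aromatic hydrocarbons (chromosome 17, 79701537 to 79715061, minus strand). At 0.3 µg/kg the 5 mice had 2.82, 2.94, 2.35, 3.19 and 1.73 CPM of Cyp1b1. At 1 µg/kg they had 92.2, 87.3, 62.3, 213 and 91.5 CPM. Every mouse at 1 µg/kg was far above every mouse at 0.3 µg/kg, and mouse 4 was the highest. The fold change was 42.2 (95% interval 18.5 to 96.3, intervals being unadjusted throughout, edgeR adjusted p 1.37e-07). Below the step Cyp1b1 was not distinguishable from vehicle, with 1.41 CPM in vehicle and 2.61 CPM at 0.3 µg/kg (adjusted p 0.67).

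Ahrr (ENSMUSG00000021575) encodes the AhR repressor, which competes with AhR for Arnt and is itself an AhR target (chromosome 13, 74211118 to 74292331, minus strand). The 5 mice at 0.3 µg/kg had 1.02, 0.907, 1.71, 0.467 and 0.325 CPM, or 91 reads together. At 1 µg/kg the values were 10.4, 22.6, 11.1, 10.8 and 8.76 CPM, and mouse 2 stood above the rest. The groups did not overlap. Ahrr was 13.7-fold higher at 1 µg/kg (95% interval 8.12 to 22.9, edgeR adjusted p 1.35e-08). In vehicle Ahrr was at 0.139 CPM, or 12 reads in all. Its estimate at 0.3 µg/kg against vehicle was already 2.64 (log2) and narrowly missed the threshold (edgeR adjusted p 0.0624). Exoc3, a subunit of the exocyst that tethers secretory vesicles, starts 2.385 kb beyond the end of Ahrr on the same strand, with no annotated gene between them, and was also called at 1.38-fold (0.47 ± 0.09 SE on the log2 scale, adjusted p 0.00446). Its values ran from 34.4 to 41.5 CPM at 0.3 µg/kg and from 49.9 to 62.98 CPM at 1 µg/kg. Without mouse 2 at 1 µg/kg the Exoc3 call was lost.

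Cyp1a1, the classic AhR-induced P450, was at 7.50 CPM in vehicle, 3415 ± 766 CPM (SD, n = 5) at 0.3 µg/kg and 4593 ± 418 CPM at 1 µg/kg. The single mice had 4714, 2966, 2988, 2898 and 3511 CPM at the lower dose and 4585, 4774, 4001, 5140 and 4464 CPM at the higher dose. Mouse 1 at 0.3 µg/kg lay within the range of the higher dose, so the groups overlapped, while the other 4 were below every mouse at 1 µg/kg (exact permutation p 0.0317, two-sided, for this gene alone). The step for Cyp1a1 was 0.43 ± 0.56 (log2, SE, adjusted p 0.965), with a 95% interval of -0.71 to 1.56. That interval reaches past 1.5-fold in both directions, so by the rule used here Cyp1a1 was neither called nor flat. It rests on the spread within all dose groups, not only these 2. Cyp1a1 had 7.50 ± 6.32 CPM (SD) in vehicle and 15.7 ± 30.2 CPM at 0.01 µg/kg. An interval from the mice of the step alone is not given here. At 30 µg/kg Cyp1a1 reached 7627 CPM.

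Cyp1a2, the constitutive and inducible hepatic P450 that also sequesters TCDD in liver, went from 8070 ± 1327 CPM to 11192 ± 1220 CPM (SD, n = 5 each). Its step was 0.47 (95% interval 0.21 to 0.74) and was not called (adjusted p 0.252). At 0.3 µg/kg 4 of the 5 mice were below every mouse at 1 µg/kg. Ugt1a6a, a glucuronosyltransferase of phenols, had no overlap, with 91.4 to 125 CPM against 132 to 164 CPM, and its step of 0.47 had an adjusted p of 0.0542. It was called by DESeq2, with the stricter filter on low counts and without mouse 3 at 0.3 µg/kg. Ugt1a6a shares exon bases with 8 other genes of the Ugt1a cluster, so reads on those bases cannot be assigned to Ugt1a6a alone. Xdh, xanthine dehydrogenase, had no overlap either, with 210 to 290 CPM against 314 to 372 CPM and an adjusted p of 0.197.

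Across the list of 21 AhR battery and complex genes, 2 were called higher and 0 lower, beside 0.115% of all genes tested. Aldh3a1, a target well known from other tissues, had 2 reads in all at each dose and gets no fold change. The remaining 20 had 17 estimates above 0 and 3 below, with a median of 0.36, against a median of -0.01 over all genes tested. Among those not called, Tiparp was at 12.7 ± 1.42 CPM and then 16.2 ± 4.10 CPM (0.37, adjusted p 0.859), and Nqo1, the quinone reductase, at 26.3 ± 5.08 CPM and then 33.5 ± 3.67 CPM (0.35, adjusted p 0.866). The receptor, its partner and Hsp90 had estimates near 0. For Hsp90ab1 the step was -0.06 with a 95% interval of -0.30 to 0.18, for Arnt 0.18 with -0.11 to 0.47 and for Ahr -0.02 with -0.44 to 0.40.

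**Figure D2:**
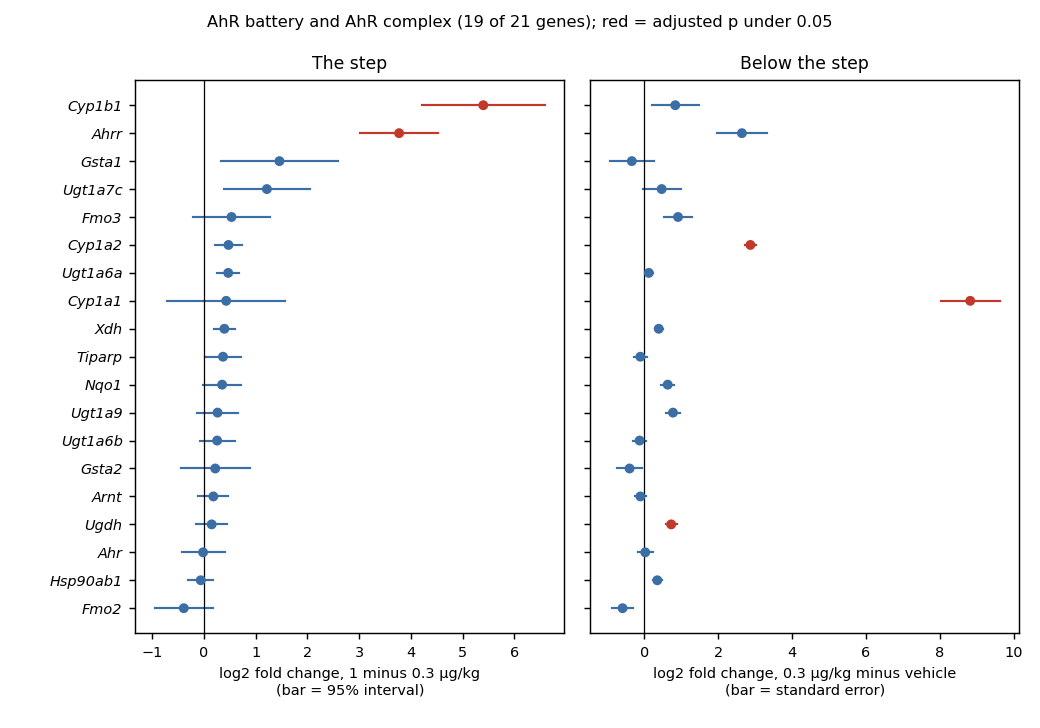
Log2 fold changes of 19 of the 21 AhR battery and complex genes (Aldh3a1, with 2 reads at each dose, is among those not drawn): left, 1 minus 0.3 µg/kg with 95% intervals; right, 0.3 µg/kg minus vehicle with standard errors; red marks an adjusted p under 0.05. Cyp1b1 and Ahrr are red on the left only, and Cyp1a1, Cyp1a2 and Ugdh on the right only; both panels use the mice at 0.3 µg/kg.

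The type IV collagen chains Col4a3 and Col4a4 rose at the step. Both belong to specialised basement membranes, and their genes lie head to head on chromosome 1 with 71 bases between them. Col4a4 (82448423 to 82586849, minus strand) had 0.235, 1.21, 0.455, 1.25 and 0.379 CPM at 0.3 µg/kg and 4.04, 1.26, 4.64, 4.62 and 5.46 CPM at 1 µg/kg. Col4a3 (82586921 to 82722059, plus strand) had 0.706, 3.80, 8.38, 11.8 and 12.2 CPM, and then 45.9, 10.0, 51.1, 48.5 and 56.7 CPM. In both genes 4 mice at 1 µg/kg were close together and mouse 2 was low, at about the highest level of the lower dose. The fold changes were 5.54 for Col4a4 (95% interval 3.15 to 9.76, adjusted p 0.000801) and 5.70 for Col4a3 (2.88 to 11.3, adjusted p 0.00826). From 1 to 3 µg/kg neither was called (adjusted p 0.902 and 0.905), and Col4a3 stood at 53.6 CPM at 3 µg/kg and 53.7 CPM at 30 µg/kg. Neither was called at the step in the fit of the 10 livers alone.

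Several step genes encode proteins with little known function in liver. Nptx1, neuronal pentraxin 1, is a secreted protein of synapses. Its 5 mice at 0.3 µg/kg had 9.49, 11.0, 13.9, 9.42 and 9.69 CPM and its 5 mice at 1 µg/kg 33.7, 79.2, 33.0, 34.4 and 30.0 CPM, with mouse 2 the highest (3.93-fold, 95% interval 2.40 to 6.43, adjusted p 0.00305). Insl6, a member of the insulin and relaxin family known from testis, went from 0.907 to 2.17 CPM across mice at 0.3 µg/kg to 3.62 to 4.88 CPM at 1 µg/kg. It was 3.24-fold higher (2.31 to 4.54, adjusted p 8.23e-05). Nptx1 and Insl6 had both been called against vehicle at 0.3 µg/kg, so for them the step continued a rise. The groups of neither gene overlapped.

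Fabp12, a member of the fatty acid binding protein family, had 27 reads in all at 0.3 µg/kg, 20 of them in mouse 3, and 296 reads at 1 µg/kg, 207 of them in mouse 2. It was called (adjusted p 0.00486), but its groups overlapped and the call was lost without mouse 2 at 1 µg/kg. C130080G10Rik, an antisense transcript on chromosome 2 with no assigned function, had 0 reads in vehicle, 1 read at 0.3 µg/kg and 27 reads at 1 µg/kg, at least 2 in every mouse. The ratio of pooled reads was 26.8 with a counting interval (exact, 95%) of 4.42 to 1097, which covers counting error only. Without mouse 2, which gave 16 of the 27 reads, this call was lost too.

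Enzymes and enzyme inhibitors were the next group. Sult5a1, a cytosolic sulfotransferase, went from 23.3, 46.02, 81.2, 49.9 and 57.9 CPM to 96.5, 189, 192, 192 and 156 CPM. Mouse 1 was the lowest of its group at both doses, and the groups did not overlap (3.19-fold, 95% interval 2.14 to 4.75, adjusted p 0.00144). Fhit, a hydrolase of dinucleoside polyphosphates whose gene spans a fragile site, went from 3.50 to 5.31 CPM to 8.91 to 15.6 CPM (2.44-fold, adjusted p 0.000136). Serpinb6a, an intracellular inhibitor of serine proteases, had 10.2 to 18.4 CPM at 0.3 µg/kg and a tight 32.3 to 36.6 CPM at 1 µg/kg (2.32-fold, 1.80 to 2.98, adjusted p 0.00015). Serpinb6a shares exon bases with Nqo2, Ripk1 and 1110046J04Rik on the other strand. The strand setting of the counting is not given in the sources used here, so how reads on those bases were counted is unknown. Them7, of the thioesterase family, rose 1.55-fold with overlap of the groups (adjusted p 0.0135).

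Genes of the cytoskeleton, signalling and lipid traffic made up most of the rest. Cyfip2, a subunit of the WAVE complex that drives actin branching, had 7.80 to 16.5 CPM and then 20.1 to 59.1 CPM, the highest value again from mouse 2 (2.43-fold, adjusted p 0.0264). Arhgap10, a GTPase-activating protein, was 2.95-fold higher (adjusted p 0.00736) and Rcan3, a regulator of calcineurin, 2.03-fold (adjusted p 0.000801). Osbpl3, an oxysterol-binding protein relative, had 1.10 to 2.20 CPM and then 11.3, 2.16, 4.49, 6.61 and 7.51 CPM, with mouse 2 again within the lower group (3.60-fold, adjusted p 0.009). Mfge8 encodes a secreted protein that bridges apoptotic cells to phagocytes, and its 1.74-fold rise (adjusted p 0.0352) was the call lost most often, in 8 of 10 fits that left out 1 mouse. Ism2, a secreted isthmin, was 2.70-fold higher (adjusted p 0.0225) and Fbxw9, an F-box protein, 1.46-fold (adjusted p 0.0131).

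All 20 genes were also at least 2-fold above vehicle at 30 µg/kg, a direction and size that 8.03% of genes tested reached. Against vehicle, 0 of the 20 were called at 0.01, 0.03 or 0.1 µg/kg, 6 at 0.3 µg/kg and 20 at each dose from 1 to 30 µg/kg. Among all genes tested the calls against vehicle were 0%, 0.0573% and 0.0229% at the 3 lowest doses, 0.464% at 0.3 µg/kg, and 1.76%, 7.54%, 15.9% and 29.6% at 1, 3, 10 and 30 µg/kg. The 6 called at 0.3 µg/kg were Cyfip2, Fbxw9, Insl6, Nptx1, Rcan3 and Them7, so for the other 14 the lowest dose called was 1 µg/kg. These counts against vehicle use the same mice at 1 µg/kg as the step. From 1 to 3 µg/kg 6 of the 20 were called again, Cyp1b1 and Ahrr among them. Cyp1b1 stood at 109 CPM at 1 µg/kg, 470 CPM at 3 µg/kg, 841 CPM at 10 µg/kg and 1452 CPM at 30 µg/kg. Ahrr stood at 12.7, 32.8, 56.9 and 75.4 CPM over the same doses. Sult5a1, not called from 1 to 3 µg/kg (adjusted p 0.763), stood at 165, 229, 230 and 252.3 CPM.

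**Figure D3:**
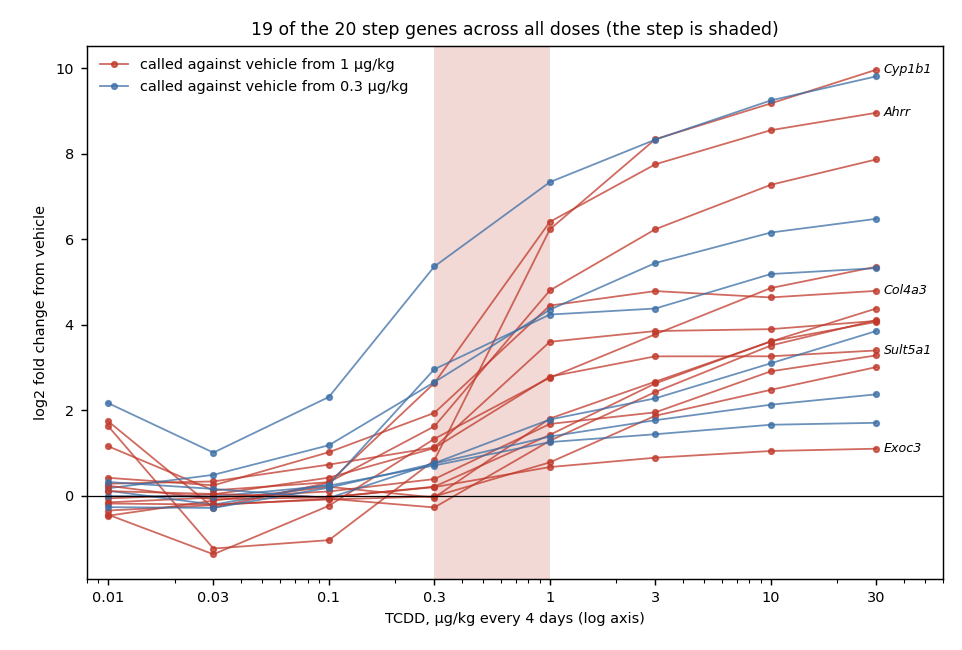
Log2 fold change from vehicle (vertical axis) against TCDD dose (log axis) for 19 of the 20 step genes, with the step shaded (C130080G10Rik, with no vehicle reads, is left out). Blue lines are the 6 genes called against vehicle from 0.3 µg/kg and red lines those called from 1 µg/kg; Col4a3 levels off after the shaded step while Cyp1b1 and Ahrr continue upwards.

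Whether the changes were particular to this step was tested as a difference between neighbouring steps in the same fit. From 0.1 to 0.3 µg/kg 8 genes were called (0.0458% of genes tested), 3 of which were among the 20, and from 1 to 3 µg/kg 31 genes were called (0.178%), 6 of which were among the 20. The steps share the mice of the dose between them. No gene passed the test that its change at this step differed from the step below (677 at an unadjusted p under 0.05, smallest adjusted p 0.99993) or from the step above (710, smallest adjusted p 0.765). Of the 20 genes, 16 had a larger estimate here than at either neighbour. The 20 were picked for their rise at this step, which by itself favours larger estimates here, so this count is no test. For Cyp1b1 the estimates were 1.87 ± 0.69 below, 5.40 ± 0.59 here and 2.11 ± 0.48 above (log2, SE), and for Ahrr 2.33 ± 0.59, 3.77 ± 0.37 and 1.34 ± 0.29. Nptx1, Cyfip2 and Ism2 had their larger estimates one step lower, at 3.05, 2.70 and 1.56 against 1.97, 1.28 and 1.43 here. Mfge8 had its larger one a step higher, at 1.09 against 0.80 here.

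**Figure D4:**
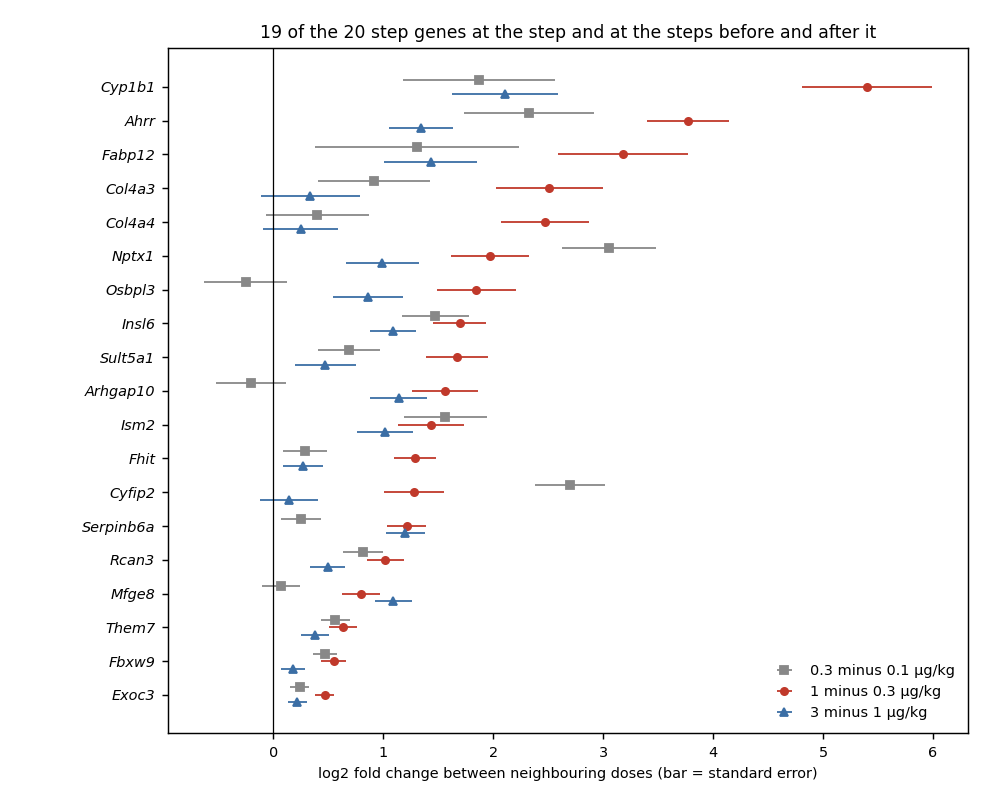
Log2 fold change with its standard error for 19 of the 20 step genes (C130080G10Rik left out for too few reads) at 3 successive steps: 0.1 to 0.3 µg/kg (grey squares), 0.3 to 1 µg/kg (red circles) and 1 to 3 µg/kg (blue triangles). The red circle is farthest right for Cyp1b1, Ahrr, Col4a3 and Col4a4, and the grey square is farthest right for Nptx1, Cyfip2 and Ism2.

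The other side of the comparison is the genes that respond to TCDD but did not change here. As a reference, 1999 genes were taken that differed at least 2-fold between 30 µg/kg and vehicle, mice that have no part in the step: 1402 were higher (8.03% of genes tested) and 597 lower (3.42%). A reference gene was put on a plateau when it was called in the same direction at 0.3 µg/kg against vehicle and was flat at the step, that is, its 95% interval lay within 1.5-fold either way with a mean of at least 10 reads. Of all genes tested, 51% were flat by this measure. A flat reference gene not called at 0.3 µg/kg was put in a group of its own, flat and uncalled, although a missing call does not show that a gene had not changed. By this rule 14 genes were on a plateau, 261 were flat and uncalled, 20 were called at the step, and 1704 (85.2%) could not be placed, 669 of them for having under 10 reads. The median half-width of the step interval was 0.32 on the log2 scale over 13365 genes with at least 10 reads.

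The 14 plateau genes were 9 higher and 5 lower at 0.3 µg/kg, and their step estimates lay between -0.20 and 0.27. Because the rule itself required flatness, these values describe the group and are not a test. Slc46a3, a lysosomal membrane transporter, is the plainest of them. In vehicle it was at 68.3 CPM, at 0.3 µg/kg the 5 mice had 354, 251, 261, 284 and 345 CPM, and at 1 µg/kg 343, 255, 305, 345 and 327 CPM. The groups covered each other almost wholly, and the step was 1.05-fold with an interval of 0.823 to 1.35. At 30 µg/kg Slc46a3 was at 298 CPM, the level it already had at 0.3 µg/kg.

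Htatip2, an oxidoreductase, was at 45.8 CPM in vehicle, 152 ± 13.7 CPM at 0.3 µg/kg and 174 ± 20.97 CPM at 1 µg/kg (SD, n = 5; step 1.14-fold, 0.957 to 1.37), and reached 231 CPM at 30 µg/kg. Hsd17b2, which oxidises estradiol to estrone, was at 108, 212, 245 and 264 CPM in these 4 groups. Ugt2b35, a glucuronosyltransferase, was at 89.0, 196, 191 and 205 CPM. Ugdh, which makes the UDP-glucuronic acid those enzymes use, was at 322 and 356 CPM across the step and 560 CPM at 30 µg/kg. Eml4, a microtubule-binding protein, was at 32.1, 30.7 and 49.6 CPM. Ugdh and Eml4 were thus flat at this step but below their level at 30 µg/kg. Among the 5 lower genes, Cyp2d40, a P450, was at 45.4 CPM in vehicle, 27.2 and 24.5 CPM across the step and 21.05 CPM at 30 µg/kg, while Tlcd1, a regulator of membrane phospholipids, was at 76.2, 47.8, 57.7 and 33.6 CPM.

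The plateau also held Nfe2l2, which encodes the antioxidant transcription factor Nrf2, at 116 ± 6.18 CPM and 119 ± 5.90 CPM across the step and 203 CPM at 30 µg/kg. Triap1, an inhibitor of apoptosis, had the one step interval among those named here that excluded 0 (0.24, 0.03 to 0.46), although it stayed within 1.5-fold. It was called again from 1 to 3 µg/kg (0.48, adjusted p 0.0324) and stood at 11.9 CPM in vehicle, 16.2 and 19.1 CPM across the step and 37.3 CPM at 30 µg/kg. Tmem62, Mfsd4b1 and Nat8f4 were on the plateau as well. At 1 µg/kg Mfsd4b1 and Tlcd1 were not called against vehicle (-0.30 and -0.40, log2, edgeR adjusted p 0.13 and 0.176). The other plateau genes were called there. The plateau is sensitive to single livers: without mouse 2 at 0.3 µg/kg, 7 genes met the rule.

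**Figure D5:**
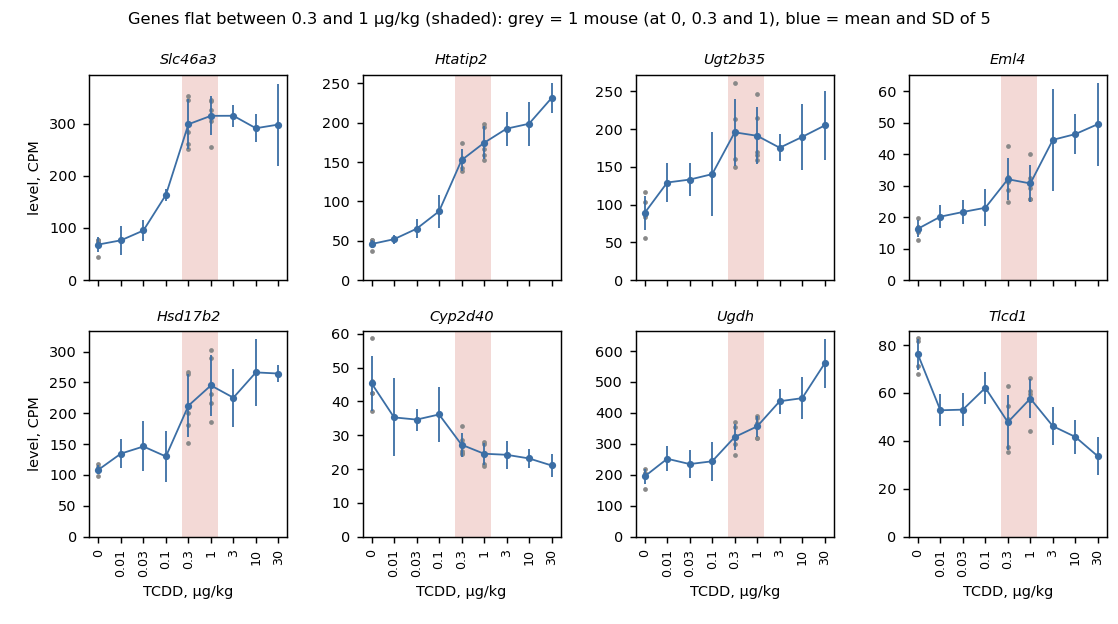
Mean level in CPM with its SD (blue, 5 mice per dose) of 8 plateau genes at each TCDD dose, with the single mice at vehicle, 0.3 and 1 µg/kg in grey and the step shaded. Slc46a3 is level from 0.3 to 30 µg/kg, whereas Htatip2, Eml4 and Ugdh are higher at 30 than at 1 µg/kg.

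The 261 flat and uncalled genes comprised 112 genes higher and 149 lower at 30 µg/kg, and 23 of the 261 were called in that direction at 1 µg/kg against vehicle. Adgrf1, an adhesion G protein-coupled receptor, was at 9.02 CPM in vehicle, 5.85 ± 1.76 CPM at 0.3 µg/kg and 5.92 ± 1.17 CPM at 1 µg/kg, and at 0.65 CPM at 30 µg/kg. Ebpl, a relative of the sterol isomerase Ebp, was at 81.9, 67.3, 65.8 and 13.3 CPM in these 4 groups. 1700001C19Rik was at 14.5, 9.21, 8.24 and 1.26 CPM, and at 1 µg/kg it was called against vehicle (adjusted p 0.002). In the other direction Adgrg1, another adhesion receptor, was at 2.11, 2.32, 2.50 and 15.6 CPM, Slc6a8, the creatine transporter, at 2.75, 3.09, 2.92 and 17.9 CPM, and Ap5b1, of the AP-5 adaptor complex, at 1.19, 1.61, 1.53 and 11.7 CPM.

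Of the 81 genes called at 0.3 µg/kg against vehicle (0.464% of genes tested), 6 were called again at the step, 31 were flat and 44 were neither. This comparison uses the mice at 0.3 µg/kg on both sides. Of the 1402 genes higher at 30 µg/kg, 1016 had a step estimate above 0 and 375 below, with a median of 0.23, and 151 (10.8%) were higher at an unadjusted p under 0.05, against 9 that were lower and against 2.83% of all genes tested that were higher. Of the 597 genes lower at 30 µg/kg, 444 had an estimate below 0 and 153 above, with a median of -0.16, and 70 (11.7%) were lower at that p, against 4 that were higher and against 2.92% of all genes tested that were lower. These shares are descriptions of unadjusted values. Over the reference genes with at least 10 reads the medians were 0.22 for 842 genes and -0.16 for 487.

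Though no gene was called lower, Serpina7 and Mup3 were among those with the smallest p and were far below vehicle at 30 µg/kg (-5.54 and -4.36, log2). They were chosen after their values were seen. Serpina7, which encodes thyroxine-binding globulin, had 9.96, 17.4, 11.7, 7.24 and 3.74 CPM at 0.3 µg/kg and 4.19, 3.96, 2.75, 2.05 and 2.05 CPM at 1 µg/kg. Mouse 5 at 0.3 µg/kg overlapped the higher dose. Its estimate was -1.73 ± 0.40 (log2, SE, adjusted p 0.0616), and it was called by DESeq2 and without mouse 5 at 0.3 µg/kg. Mup3, a major urinary protein made under growth hormone control, had 2189, 2064, 2314, 3056 and 1685 CPM and then 673, 1562, 1419, 788 and 933 CPM. Its groups did not overlap, with an estimate of -1.07 ± 0.29 (adjusted p 0.22).

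The 23 pathway lists examined held 441 different genes tested, of which 3 were called higher (Ahrr, Cyp1b1 and Sult5a1, beside 0.115% of all genes tested), 0 lower and 184 (41.7%) were flat, beside 51% of all genes tested. The lists of bile acid synthesis, cholesterol synthesis, fatty acid oxidation, urea cycle and pericentral genes, iron and heme, and tryptophan and one-carbon metabolism each had 0 called and medians between -0.08 and 0.06. The Cyp2, Cyp3 and Cyp4 list had 0 of 35 called and 15 flat. The Nrf2 list had 0 of 22 called and 15 flat, with a median of 0.04. Lipogenesis had the lowest median of these lists, -0.28 over 17 genes, with 0 called. Its estimates ran from -1.48 to 0.24, and 4 members were lower and 0 higher at an unadjusted p under 0.05. Fasn and Pnpla3 were chosen from those 4 after their values were seen. Fasn was at 532 ± 215 CPM and 282 ± 60.4 CPM (adjusted p 0.713) and Pnpla3 at 6.95 ± 6.61 CPM and 2.47 ± 1.36 CPM (adjusted p 0.787). MHC class II and chemokine genes had the highest median, 0.43 over 21 genes, with 0 called.

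Of 70 marker genes tested, for liver cell types including hepatocytes and for other cells, 0 were called, beside 0.115% of all genes tested. At that share, 0 of 70 does not set the markers apart from other genes. The T and NK cell, B cell and neutrophil lists had medians of 0.65, 0.54 and 0.70, at summed levels of at most 10.5 CPM in any mouse, and 9 macrophage markers summed to 130 to 322 CPM at 0.3 µg/kg and 173 to 418 CPM at 1 µg/kg. In liver tissue with its cell types mixed, more cells of a type and more RNA per cell cannot be told apart. Endothelial markers had a median of 0.000258, cholangiocyte markers -0.05 and erythroid markers -0.51, the last with sums of 63.8 to 101 CPM and then 46.5 to 74.96 CPM. The 4 pancreatic acinar markers tested had few reads and a median of -3.35, with sums of 8.07 to 10.9 CPM and then 5.73 to 8.17 CPM. The 18 clock genes had 0 called and a median of 0.08, but single genes moved with mouse 1 at 0.3 µg/kg, and Cry1 was at 25.7 ± 31.9 CPM at that dose and 10.2 ± 5.90 CPM at 1 µg/kg. With a clock score (Arntl minus Dbp) as a covariate 20 genes were called, the same 20 as without it.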

How the data were processed

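The genes and lists described here were chosen with earlier results of these data known. Single-end 50 base reads were trimmed, aligned to GRCm38 with TopHat 1.4.1 and counted on Ensembl genes with HTSeq 0.6.1 by the authors, who deposited raw read counts per gene without normalization and left out reads aligned to several places. Trimming, aligner and build come from the submitters' processing notes and the study's methods. Groups came from the sample labels. Mouse numbers follow accession order and were not used to pair mice.

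Genes with more than 4 reads in any of the 45 libraries were fitted with edgeR 4.0.16 in R 4.3.3 (TMM, 1 coefficient per group, quasi-likelihood test, Benjamini-Hochberg adjustment). DESeq2 1.42.0 was an alternative. Log2 CPM used a prior count of 2. The minimum of 10 reads for a flat gene was added after the data were seen. Named genes were the 12 largest non-overlapping rises among called genes with at least 10 reads, the whole AhR list, 8 plateau genes, 6 flat genes not called at 0.3 µg/kg and list members called. Symbols matched 17270 tested genes. Positions are from GENCODE and promoter windows from RefSeq (GRCm38), read with Python 3.11.15. The fits were tested on simulated data. Precision is lowest for genes with few reads. Some genes of the lists are not reported here.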

Additional observations from a re-analysis of the deposited data

Results flagged for a closer look

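Within a group of 5 mice, a value was marked when the gap between 1 mouse and its nearest neighbour exceeded 0.71 of the group's range in log2 CPM, the Dixon limit at 95%. Of 116 groups tested over 58 genes, 14 were marked, where chance marks about 5% of groups.

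Mouse 2 at 1 µg/kg, the deepest library of the step and shifted in clock genes, gave 9 of the 14. It was high for Ahrr (22.6 CPM against 8.76 to 11.1 in the other 4 mice, gap 0.752 of the range), Nptx1 (79.2 against 30.0 to 34.4 CPM, 0.862), Cyfip2 (59.1 against 20.1 to 23.2 CPM, 0.867), Exoc3 (62.98 against 49.9 to 53.2 CPM, 0.728) and Hsp90ab1 (962 against 830 to 865 CPM, 0.718). It was low for Col4a3 (10.0 against 45.9 to 56.7 CPM, 0.878), Col4a4 (1.26 against 4.04 to 5.46 CPM, 0.790) and Arnt (45.1 against 63.8 to 67.8 CPM, 0.850). It also held both Aldh3a1 reads of its group, a gap of 1 from 4 mice at 0. At the other dose, C130080G10Rik had its single read in mouse 2, again a gap of 1.

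Mouse 1 at 0.3 µg/kg, which stood apart in clock genes, was high for Hsp90ab1 (1414 against 749 to 828 CPM, 0.843) and Nfe2l2 (127 against 112 to 115 CPM, 0.783) and low for Nat8f4 (7.14 against 9.50 to 9.97 CPM, 0.855). Mouse 1 at 1 µg/kg was high for Ugt1a9 (264 against 131 to 158 CPM, 0.737). The cause of these values was not tested.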

How the results depend on the processing

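The 20 step genes kept a rise under each of 18 alternatives, and 315 of 360 of their values stayed past the threshold. With only the 10 mice of the step, 6 genes were called, all 6 at least 2-fold; fewer libraries estimate the spread in that fit. DESeq2 called 32. Leaving out 1 mouse gave 14 to 24 genes, 13 to 18 of them at least 2-fold. TMM against size factors of DESeq2 or no normalization gave 20 and 19, and a stricter or no filter on low counts 22 and 20. The plateau held 9 genes with only vehicle, 0.3, 1 and 30 µg/kg fitted, 28 with a flat bound of 2-fold, 29 without a fold criterion for reference genes, 9 with the clock covariate and 7 to 14 without 1 mouse. Flat and uncalled genes numbered 815 with the 2-fold bound and 2812 without the fold criterion. Apart from the step genes, 29 of 666 values turned sign, all of genes not called. With the clock covariate Hsp90ab1 became 0.0528, Eml4 0.0941 and Adgrf1 -0.0424 on the log2 scale. Without 1 mouse the ranges were -0.13 to 0.0850 for Ahr, -0.12 to 0.15 for Hsp90ab1, -0.17 to 0.0720 for Eml4, -0.14 to 0.10 for Ugt2b35, -0.00839 to 0.13 for Tmem62, -0.13 to 0.12 for Adgrf1, -0.12 to 0.0839 for Ap5b1, -0.0185 to 0.24 for Adgrg1 and -0.12 to 0.0186 for Ebpl. The causes were not tested. The clock covariate, the fit without the low-Xist library and the read minimum of flat genes were chosen after seeing the data. No paired analysis was possible because the mouse numbers only follow accession order and no label ties mice of different doses. Mice 2 and 5 had similar Per1 levels at both doses (1.47 and 1.77 CPM, and 48.1 and 51.5 CPM), a hint from the data and not from the design.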

Other observations

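DESeq2 called 12 genes that edgeR did not, and the following were chosen from them after their values were seen. Tcf4, an E-protein transcription factor, was at 38.8 ± 5.28 CPM (SD, n = 5) at 0.3 µg/kg and 53.2 ± 4.28 CPM at 1 µg/kg, with an edgeR adjusted p of 0.0616 at the step, and it had been called against vehicle at 0.3 µg/kg. Siglecf, a sialic acid receptor of eosinophils and some macrophages, was at 0.374 ± 0.238 and 1.33 ± 0.705 CPM (adjusted p 0.0783). Pmm1, a phosphomannomutase, was at 5.08 ± 1.80 and 9.45 ± 1.75 CPM (adjusted p 0.0859), and Tert, the catalytic subunit of telomerase, at 15.2 ± 4.82 and 25.8 ± 0.948 CPM (adjusted p 0.0909). Hjurp, which loads the centromeric histone, was at 306 ± 94.2 and 523 ± 94.2 CPM (adjusted p 0.101).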
